A study of Mus musculus with 4 samples.

Results

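Hyaluronan is a long sugar polymer of the extracellular matrix, and 8 genes of its synthesis, turnover and binding are described here in mouse cancer-associated fibroblasts (CAFs), the fibroblasts that lie within a tumour. The members were taken by gene symbol: the synthases Has1, Has2 and Has3, the hyaluronidases Hyal1, Hyal2 and Tmem2 (now called Cemip2), the receptor Cd44 and the proteoglycan Vcan (versican). All 8 were found among the 23377 genes of the count table, and all 8 were among the 12001 genes with enough reads to test. The series title concerns lactate release by tumour cells and adaptive resistance to MET- and EGFR-directed drugs. Polyadenylated RNA was sequenced from CAFs labelled as coming from resistant tumours (2 libraries, titled RES4) and CAFs labelled as coming from normal tumours (2 libraries, titled WTA), and those 4 libraries are the whole series. The labels give cell type and phenotype only. Mouse strain, age, sex, drug, dose, tumour line and cell isolation are not stated there, and each group carries 1 title name, so that a trait of 1 tumour or culture cannot be told apart from the group. The design text calls the replicates biological without saying what they were taken from, so p-values reflect only how far these libraries spread, and that spread may be technical.

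Hyaluronan is spun out through the plasma membrane by the synthases from UDP-glucuronate and UDP-N-acetylglucosamine. At the cell surface Tmem2 and the lipid-anchored Hyal2 cut long chains into fragments, and Hyal1 degrades fragments further in the lysosome. CD44 binds the polymer on the cell surface, and versican binds it in the matrix and carries chondroitin sulfate chains. Fibroblasts are a main source of hyaluronan and versican in tumour stroma.

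Of the 8 genes, Vcan and Has1 were higher and Hyal1 was lower in resistant tumour CAFs, at an adjusted p under 0.05 over all genes tested. The other 5 (Has2, Has3, Hyal2, Tmem2 and Cd44) did not pass the test. The 3 calls are 37.5% of the members, beside 29.4% of all genes tested (15.5% higher and 13.9% lower), so the number of calls does not set these genes apart. Group ranges did not overlap for 5 of the 8, beside 64.7% of all genes tested: 4 lay above (31.9% of all genes) and 1 below (32.9%). The median log2 fold change was 0.37 over the members and -0.0036 over all genes tested.

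The starts of the 3 genes that moved are shown because these are the loci where RNA differed between the groups. Each run covers 220 bases, from 250 to 31 bases before the annotated start (RefSeq, GRCm38.p6, read 5′ to 3′ on the gene's strand). Capitals mark CCAAT, or ATTGG where it lies on the other strand, the short element bound by the general factor NF-Y. The windows are chr13:89742543-89742762 on the minus strand for Vcan, chr17:17855219-17855438 on the minus strand for Has1 and chr9:107576700-107576919 on the plus strand for Hyal1.
Vcan: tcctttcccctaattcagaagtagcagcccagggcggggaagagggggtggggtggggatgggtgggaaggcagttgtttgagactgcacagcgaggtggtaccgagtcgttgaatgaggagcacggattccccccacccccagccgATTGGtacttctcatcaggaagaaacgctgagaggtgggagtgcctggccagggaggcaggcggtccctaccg
Has1: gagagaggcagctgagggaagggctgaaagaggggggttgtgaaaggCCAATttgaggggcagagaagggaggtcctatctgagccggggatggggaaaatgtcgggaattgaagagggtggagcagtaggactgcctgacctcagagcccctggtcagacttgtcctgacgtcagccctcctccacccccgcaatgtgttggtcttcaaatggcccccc
Hyal1: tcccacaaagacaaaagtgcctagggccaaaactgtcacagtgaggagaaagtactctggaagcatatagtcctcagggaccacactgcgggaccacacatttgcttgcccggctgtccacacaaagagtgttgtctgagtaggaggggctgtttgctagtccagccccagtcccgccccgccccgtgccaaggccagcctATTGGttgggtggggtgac
Each of the 3 windows held 1 CCAAT, which 31.0% of 32851 windows of the same length in the RefSeq table also held. The GC box GGGCGG was found once for Vcan, at 2 overlapping places for Hyal1 and not for Has1, and 28.5% of all windows held it. None of the 3 held TATAAA (9.95% of all windows), the hypoxia response core ACGTG (14.4%) or the AP-1 element TGANTCA (6.12%), all searched on both strands. Of 9 further motifs searched on both strands, CTTTGT was found at 2 places for Hyal1 (14.8% of all windows held it) and a loose form of the NF-κB element once for Vcan (41.2%). The E-box CACGTG (which contains ACGTG), the E-box form CACCTG, the TEAD element CATTCC, the SOX element AACAAT, the STAT element TTCNNNGAA, the TCF element AGATCAAAG and the ETS element GGAAGTG were in none of the 3, and 0.259 to 15.5% of all windows held each. A match in letters is a description and no measure of binding.

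**Figure D1:**
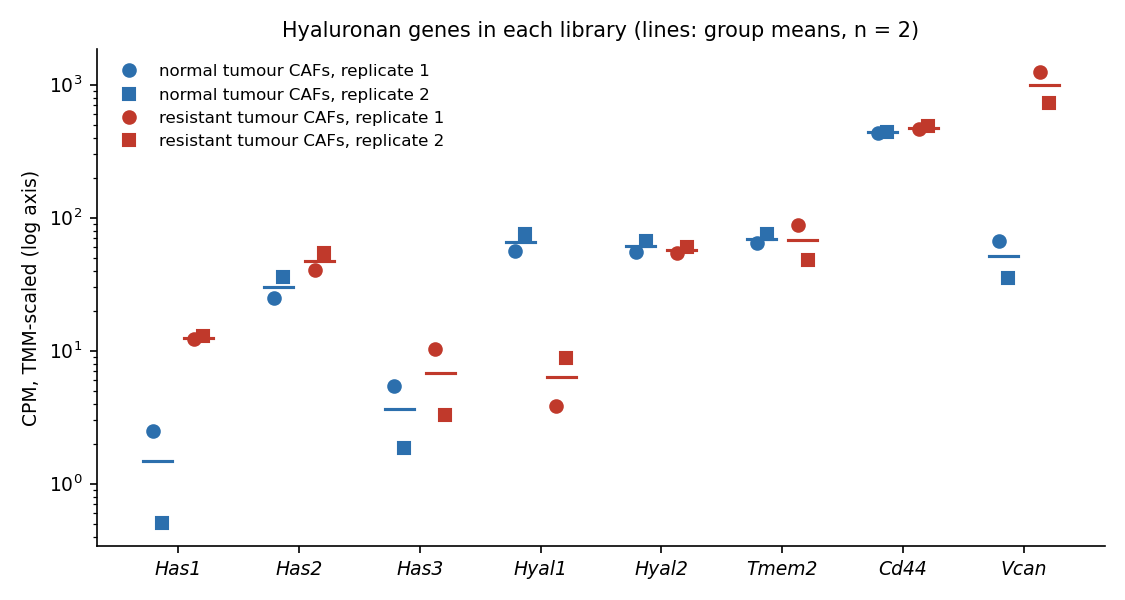
TMM-scaled CPM on a log axis for the 8 genes, with 1 symbol a library (circles replicate 1, squares replicate 2) and a line at each group's mean of 2 libraries. Vcan and Has1 lie higher and Hyal1 lower in the resistant libraries (red) than in the normal libraries (blue), and the groups of Hyal2, Tmem2 and Has3 overlap.

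Levels are given as CPM, counts divided by library size, where TMM factors adjust the size for differences in composition. The libraries held 2785936 to 5558541 reads in all, with fewer in both resistant libraries (2845237 and 2785936) than in the normal ones (3948066 and 5558541). One read was therefore worth 0.168 to 0.381 CPM. Markers of cell type differed between the groups, and fewer cells of a type cannot be told apart from less RNA per cell in such bulk samples. The marker calls below stand beside 15.5% called higher and 13.9% called lower over all genes tested. The 12 fibroblast markers summed to 10358 to 11136 CPM in resistant and 3729 to 4777 CPM in normal libraries, and 10 of the 11 tested were called higher. Their log2 fold changes ran from -0.10 to 7.96 with a median of 2.02, so the sums do not show how far single markers moved. Lum, which was not tested, was alone at 0 in the normal libraries and had 4 and 12 reads in the resistant ones. The 10 Schwann cell and neural crest markers summed to 8.37 to 8.44 CPM in resistant and 1139 to 1287 CPM in normal libraries, and all 7 tested were called lower. Among them Foxd3 and Sox2 were at 0 in the resistant libraries. The 8 endothelial markers summed to 4.04 to 5.71 against 51.5 to 61.7 CPM, with Tie1 and Emcn at 0 in both groups and Kdr at 0 in the normal one. Only 1 of the 8 had enough reads to test (log2 fold change -4.30, called lower). That gene made up most of the normal sum, so the sum does not speak for the list. Macrophage and leukocyte markers summed to at most 29.0 CPM in any library, with Ptprc, Emr1 and Cd3e at 0 throughout. Of 8 epithelial markers, Krt19 alone had reads in the resistant libraries, and the sums were 45.7 to 63.9 against 9.26 to 9.66 CPM. The 8 myofibroblast and smooth muscle markers summed to 630 to 797 against 946 to 1085 CPM, with Myh11 at 0 in the normal ones. They did not move together: 2 were called higher and 2 lower in resistant tumour CAFs, with a median log2 fold change of 0.36. The part of these cell type differences in the results below was not tested.

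Among the synthases, Has1 differed. It had 12.2 and 12.8 CPM in resistant replicates 1 and 2, against 2.48 and 0.505 CPM in normal replicates 1 and 2 (32, 35, 10 and 3 reads). Both resistant libraries lay above both normal libraries, and the normal replicates were 4.91-fold apart. The mean was 12.5 ± 0.474 CPM (SD, n = 2) in resistant tumour CAFs and 1.49 ± 1.39 CPM in the others. The log2 fold change of Has1 was 3.15 ± 0.66 (SE), adjusted p = 0.00312 with edgeR's quasi-likelihood test. The value rests on few normal reads: it was 4.48 (adjusted p = 4.17e-04) without normal replicate 1, and 2.28 and no longer past the test (adjusted p = 0.0548) without normal replicate 2.

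Has2, the main synthase of most fibroblasts, had 40.3 and 54.0 CPM in resistant libraries and 25.0 and 35.5 CPM in normal libraries. The lower resistant library lay above the higher normal one, and the replicates were 1.34-fold and 1.42-fold apart. The log2 fold change of 0.64 ± 0.40 did not pass (adjusted p = 0.264), with a 95% interval from a 0.854-fold to a 2.83-fold level in resistant tumour CAFs. Has2 shares 182 of its 4237 exonic bases with the opposite-strand transcript Has2os in the GENCODE annotation, and no source used here states the strand setting of the counting, so reads there cannot be assigned with certainty. Has2os, named after its values were seen, had 15 and 18 reads in resistant and 7 and 11 in normal libraries. It was called higher (1.76 ± 0.56 on the log2 scale, adjusted p = 0.0314), a call lost without any single library (adjusted p from 0.0749 to 0.287) and with DESeq2 (adjusted p = 0.203).

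Has3, a synthase known for shorter chains, was scarce. It had 10.3 and 3.30 CPM in the resistant and 5.45 and 1.85 CPM in the normal libraries. The groups overlapped, and replicate 1 was the higher library in each group, by 3.11-fold and 2.94-fold. The log2 fold change of 0.94 ± 0.68 did not pass (adjusted p = 0.340), and the 95% interval ran from 0.69-fold to 5.31-fold. Has3 shares 352 of its 6380 exonic bases with the opposite-strand gene Chtf8 in GENCODE. Chtf8 had 266 and 241 reads in resistant and 253 and 575 in normal libraries, so reads of Has3 there cannot be assigned with certainty either.

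Has2 made up most synthase reads in every library. Its share of the reads of the 3 synthases was 64.2% (95% Wilson interval 56.7 to 71.2%) and 77.0% (70.5 to 82.4%) in the resistant libraries. In the normal libraries it was 75.9% (68.0 to 82.4%) and 93.8% (89.8 to 96.3%). The Has1 share was 19.4% (14.1 to 26.1%) and 18.3% (13.5 to 24.4%) in resistant, against 7.52% (4.14 to 13.3%) and 1.33% (0.454 to 3.85%) in normal libraries. The Has1 intervals of the resistant libraries lay above those of the normal libraries, while the Has2 share of resistant replicate 2 lay beside that of normal replicate 1. The intervals take the reads of 1 library as independent, so they cover counting error alone and leave out the spread between libraries. The reads have no molecular identifiers, so copies of 1 molecule may make the intervals too narrow. The Has3 share followed the replicate number: it was 16.4% and 16.5% in the libraries numbered 1 and 4.71% and 4.89% in those numbered 2. Whether the number marks a shared batch is not stated in the labels.

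**Figure D2:**
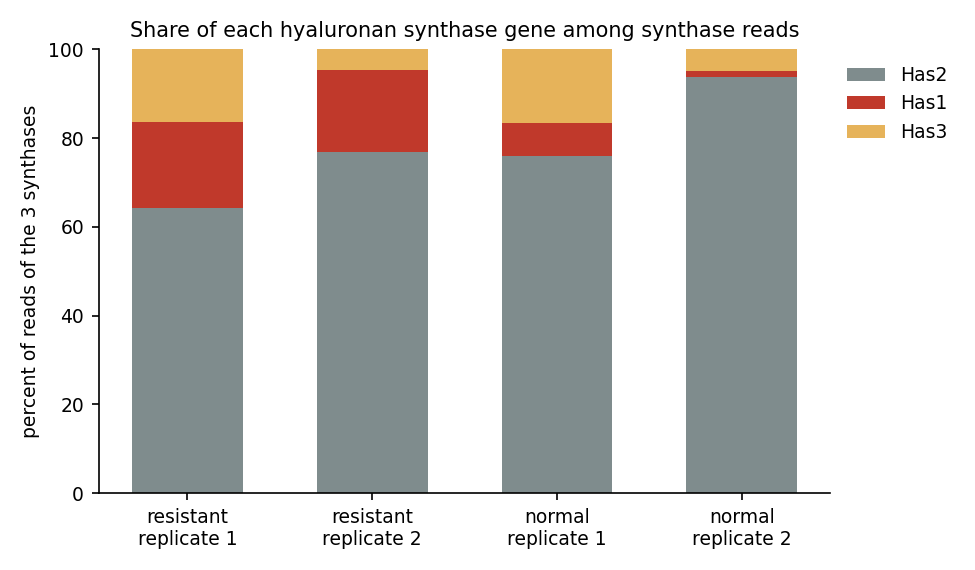
Percent of the reads of the 3 hyaluronan synthase genes that belong to Has2 (grey), Has1 (red) and Has3 (yellow), 1 bar a library from 165, 191, 133 and 225 reads. Has1 takes 18.3 to 19.4% in the resistant bars and 1.33 to 7.52% in the normal bars.

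Summed over the 3 synthases, the libraries held 62.8 and 70.1 CPM in resistant and 33.0 and 37.9 CPM in normal tumour CAFs. Has1 reads per Has2 read, a ratio within a library that no scaling can move, were 0.302 and 0.238 in resistant and 0.0990 and 0.0142 in normal libraries. The ratio was higher in both resistant libraries, by 2.84 on the log2 scale. With 2 libraries against 2, an exact two-sided permutation test cannot go below p = 0.333, the value that this ratio and the other ratios below reached.

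Of the hyaluronidases, Hyal1 moved and Hyal2 and Tmem2 did not pass the test. Hyal1, the lysosomal enzyme, had 3.81 and 8.81 CPM in resistant libraries against 55.7 and 75.2 CPM in normal libraries (10, 24, 225 and 447 reads). Both resistant libraries lay far below both normal ones. The means were 6.31 ± 3.54 and 65.5 ± 13.8 CPM. Hyal1 fell by 3.37 ± 0.50 on the log2 scale (adjusted p = 2.82e-04), a level 10.3-fold higher in normal tumour CAFs. The resistant replicates were 2.32-fold apart, and the log2 fold change was -4.10 without resistant replicate 2 and -2.89 without resistant replicate 1, past the test both times. In the GENCODE annotation 1920 of the 3777 exonic bases of Hyal1 (50.8%) also belong to Naa80 on the same strand, and 159 to Hyal3. The count table has no Naa80 but has Nat6, a symbol that RefSeq lists as a synonym of both Naa80 and Hyal1, with 17.5 and 14.7 CPM in resistant and 24.5 and 23.9 CPM in normal libraries (log2 fold change -0.59 ± 0.41, adjusted p = 0.324). No source used here states how the authors' counting split reads between these genes, so the level of Hyal1 is uncertain.

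Hyal2, its neighbour on chromosome 9, had 54.0 and 59.8 CPM in resistant and 55.3 and 67.0 CPM in normal libraries. The groups overlapped. The log2 fold change of Hyal2 was -0.10 ± 0.35 (adjusted p = 0.860), with a 95% interval from 0.550-fold to 1.58-fold. There were 0.0704 and 0.147 Hyal1 reads per Hyal2 read in resistant libraries and 1.01 and 1.12 in normal libraries, a log2 difference of -3.39. In the normal libraries the pair was thus counted about equally often, and in the resistant libraries Hyal2 took most of their reads.

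Tmem2, the transmembrane hyaluronidase, had 87.5 and 47.7 CPM in resistant and 64.2 and 74.7 CPM in normal libraries. Both normal values lay between the resistant ones, which were 1.83-fold apart. The log2 fold change was -0.04 ± 0.38 (adjusted p = 0.95), with a 95% interval from 0.551-fold to 1.72-fold.

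The receptor Cd44 was the steadiest of the 8 genes between replicates. It had 460.0 and 484 CPM in resistant and 437 and 441 CPM in normal libraries, and replicates were 1.05-fold and 1.01-fold apart. The resistant libraries lay above the normal ones by a small margin, and Cd44 did not pass (log2 fold change 0.11 ± 0.22, adjusted p = 0.768). The 95% interval of Cd44 ran from 0.775-fold to 1.49-fold. The sign turned to -0.030 with library totals alone as scaling, which moved the median of all genes by -0.14, and to -0.36 (adjusted p = 0.207) with offsets that remove each library's trend along expression level. The table sums all Cd44 transcripts, so exon variants of the receptor were not analysed here.

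The proteoglycan Vcan had the largest fold change of the 8. It had 1248 and 732 CPM in resistant libraries against 66.9 and 35.2 CPM in normal libraries (3281, 1994, 270 and 209 reads). The lower resistant library was far above the higher normal one. Means were 990.1 ± 365 and 51.0 ± 22.4 CPM, and the log2 fold change was 4.28 ± 0.37 (adjusted p = 8.74e-06), a 19.5-fold higher level with a 95% interval from 11.2-fold to 33.9-fold. Replicates were 1.71-fold apart in resistant and 1.90-fold apart in normal tumour CAFs. For each Cd44 read there were 2.71 and 1.51 Vcan reads in resistant libraries and 0.153 and 0.0797 in normal libraries, a log2 difference of 4.20.

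**Figure D3:**
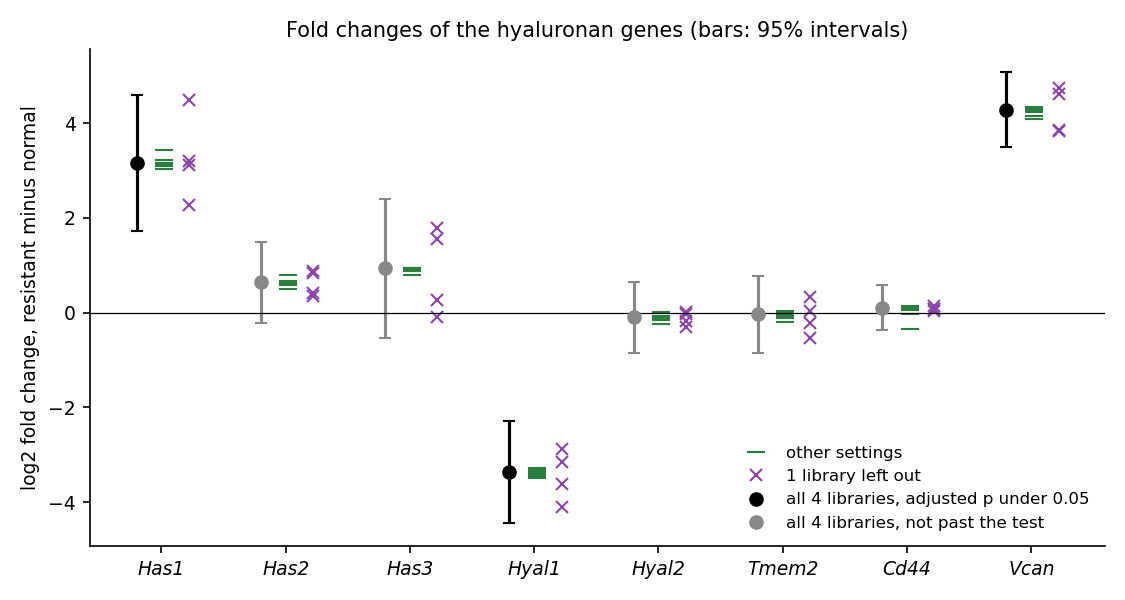
Log2 fold change (resistant minus normal) of the 8 genes: dots with 95% intervals from all 4 libraries (black past the test, grey not), dashes for other settings, crosses with 1 library left out. Vcan (3.84 to 4.74), Has1 (2.28 to 4.48) and Hyal1 (-4.10 to -2.89) keep their sign throughout, and the intervals of the other 5 genes include 0.

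Levels can be compared between genes only per length, here as CPM per kilobase of exonic sequence in GENCODE, which is not the annotation the authors counted on. In resistant tumour CAFs Cd44 (69.7 ± 2.55 CPM per kilobase) and Vcan (68.5 ± 25.3) stood first and did not differ beyond their spread. Hyal2 (17.3 ± 1.24) and Has2 (11.1 ± 2.27) followed, then Tmem2 (7.94 ± 3.30), Has1 (2.77 ± 0.105), Hyal1 (1.67 ± 0.937) and Has3 (1.06 ± 0.773). The standard deviations of Has2 and Tmem2 met, and so did those of Hyal1 and Has3. In normal tumour CAFs Cd44 (64.8 ± 0.515 CPM per kilobase) stood alone at the top. Hyal2 (18.6 ± 2.52) and Hyal1 (17.3 ± 3.65) came next and overlapped, as did Tmem2 (8.15 ± 0.877) and Has2 (7.14 ± 1.75). Vcan (3.53 ± 1.55), Has3 (0.572 ± 0.399) and Has1 (0.330 ± 0.309) were lowest, the last pair overlapping. Vcan thus stood at rank 2 in resistant and rank 6 in normal tumour CAFs, and Hyal1 at rank 7 and rank 3. The lengths sum the exonic bases of all annotated transcripts, whether or not these cells use them. For Hyal1, 1920 of the 3777 bases are shared with Naa80. The ranks are therefore approximate.

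The authors' deposited table lists all 8 genes. Its log2 fold changes were 4.25 for Vcan, 3.11 for Has1 and -3.4 for Hyal1. The authors' deposited table calls Vcan (adjusted p = 5.28e-15) and Hyal1 (adjusted p = 1.1e-04). It does not call Has1 (adjusted p = 0.171), and it gives a test statistic of 0 for the other 5 genes. The statistics of Has1 (2.34, SE 0.9) and Hyal1 (-4.61, SE 0.52) match the absolute log2 fold change less 1, over its SE. They thus appear to test for a change beyond 1 on the log2 scale, while the main test here asks for any change. Calls in that table reach an adjusted p of 0.0999, above the threshold used here. Its adjusted p for Has1 therefore does not answer the same question as the main test. Tested here against a log2 fold change of 1 with edgeR's glmTreat, Has1 was still called (adjusted p = 0.0119). The 2 results for Has1 thus differ at that question as well. The SE of Has1 was 0.66 in the main test here and 0.917 with DESeq2. Genes called in the authors' deposited table all moved by 2 or more on the log2 scale, and those with a statistic of 0 by at most 1.01.

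Other genes of the pathway were read from 7 lists. Of 104 such genes in the count table, the 8 members left out, 76 were tested. In resistant tumour CAFs 27 of them were higher and 6 lower. That is 43.4% called, beside 29.4% of all genes tested, and the median log2 fold change was 0.24. The 27 higher calls fell to 15 without normal replicate 1 and to 12 without normal replicate 2. The 6 lower calls rose to 14 without resistant replicate 1, to 10 with library totals or without a low-count filter, and to 11 with the replicate number as a block.

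Of 14 tested enzymes that make the sugar precursors, 6 were higher, 1 was lower and 7 did not pass, beside 15.5% higher and 13.9% lower over all genes tested. The median log2 fold change of the list was 0.46. Pgm2, a phosphoglucomutase, rose by 2.30 ± 0.28 (adjusted p = 6.97e-05), from 65.8 ± 1.94 to 324 ± 66.5 CPM. Ugdh, which makes UDP-glucuronate, rose by 1.06 ± 0.23, from 238 ± 3.67 to 494 ± 25.5 CPM. Gfpt2, which starts the hexosamine pathway to UDP-N-acetylglucosamine, rose by 1.79 ± 0.35, and Nagk, which salvages N-acetylglucosamine, by 1.25 ± 0.32. Without normal replicate 1 or 2, Ugdh (adjusted p = 0.0579 and 0.0836), Gfpt2 (adjusted p = 0.0515 and 0.112) and Nagk (adjusted p = 0.277 and 0.221) did not pass. Uap1l1, named after its value was seen, was the lower gene (-1.23 ± 0.33). Uap1, which forms UDP-N-acetylglucosamine, had -0.10 ± 0.33 and did not pass.

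Of 9 tested degrading enzymes, the 3 hyaluronidases above included, 1 was higher and 1 lower, and the median was -0.04. Called genes made up 22.2%, beside 29.4% of all genes tested. Hyal1 was the lower one. Hyal4, Hyal5, Hyal6 and Spam1 had no read in any library, which allows up to 0.505 to 1.14 CPM in a library.

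Of 6 tested receptors, Cd44 included, 2 were higher and 1 lower, which is 50% called beside 29.4% of all genes tested. Layn (layilin), a membrane receptor for hyaluronan, rose by 1.49 ± 0.27, from 92.7 ± 8.73 to 260 ± 27.2 CPM, and missed the threshold once normal replicate 2 was left out (adjusted p = 0.0665). Tlr2, an innate immune receptor, rose by 2.65 ± 0.61, from 15 and 6 reads in normal to 40 and 36 in resistant libraries. For Tlr2 the log2 fold change was 3.71 without normal replicate 1, and 1.88 and no longer past the test without normal replicate 2 (adjusted p = 0.106). The scavenger receptor gene Stab1 was lower, with 2 and 1 reads in resistant against 50 and 49 in normal libraries. The pooled level was 17.7-fold higher in normal libraries (5.88-fold to 87.3-fold by counting error at 95%). Lyve1, the lymphatic hyaluronan receptor, had no read.

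Of 6 tested matrix proteins that bind hyaluronan, Vcan included, 2 were higher and 1 lower (50% called, beside 29.4% of all genes tested). Hapln4, a link protein known from brain matrix, went from 61.6 ± 7.89 CPM in normal to 4.16 ± 3.8 CPM in resistant tumour CAFs (log2 fold change -3.89 ± 0.58, adjusted p = 3.21e-04). The resistant value rests on few reads (18 and 4), and the log2 fold change of Hapln4 was -5.36 without resistant replicate 1 and -3.17 without resistant replicate 2, past the test both times. Ptx3 (pentraxin 3) rose by 2.15 ± 0.69, from 4 and 13 reads in normal to 9 and 31 reads in resistant libraries, so that group ranges by CPM were apart. Its call was lost without resistant replicate 2 (1.04, adjusted p = 0.387) or either normal replicate (1.69, adjusted p = 0.226, and 2.83, adjusted p = 0.0542), and with DESeq2 (adjusted p = 0.115) and limma-voom (adjusted p = 0.0509). Acan and Hapln1, the proteoglycan and link protein of cartilage, had no read.

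Genes for versican cleavage and its matrix partners were higher in 8 of 10 tested, none was lower, and the median was 1.96. That is 80% called, beside 29.4% of all genes tested. Adamts5, a protease that cuts versican, rose by 3.13 ± 0.30, from 28.1 ± 2.91 to 246 ± 4.30 CPM (adjusted p = 1.79e-05). Fbn1 (fibrillin 1) rose by 2.00 ± 0.32 and Fbln1 (fibulin 1) by 1.99 ± 0.33, both matrix proteins that can bind versican. Fbn2 (fibrillin 2) had 19 and 15 reads in resistant and 0 in normal libraries, at least 21.1-fold higher, counted against 3 reads over the normal group. The 2 that did not pass were the versican-cutting proteases Adamts1 (-0.01 ± 0.24) and Adamts4 (0.10 ± 0.34). The other 3 of the 13 listed genes had too few reads to test. The fibroblast markers were also higher in these libraries, and their part in this count was not tested.

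Of 16 tested genes for CD44 linkage and shedding, 5 were higher and 1 lower, with a median of 0.21. The share called was 37.5%, beside 29.4% of all genes tested. Tiam1, an activator of the GTPase RAC1, went from 0.456 ± 0.407 to 79.3 ± 22.4 CPM (log2 fold change 7.49 ± 0.65), with 4 normal reads in all. For Tiam1 it was 8.56 without normal replicate 1 and 6.62 without normal replicate 2, and the call held. Mmp9, a gelatinase that can dock on CD44, went from 0.753 ± 0.364 to 50.8 ± 0.767 CPM (5.95 ± 0.56). Spp1 (osteopontin), a ligand of CD44, rose by 1.69 ± 0.25. Ank3 (ankyrin G) rose by 1.26 ± 0.30 and lost its call without normal replicate 1 (adjusted p = 0.162) or 2 (adjusted p = 0.22). The CD44-shedding proteases Adam17 (1.13 ± 0.28) and Adam10 (-1.12 ± 0.29), named after their values were seen, were called in opposite directions. Ezr, Rdx and Msn, which link CD44 to actin, had -0.54 ± 0.30, 0.15 ± 0.24 and -0.07 ± 0.23 and did not pass.

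Of 20 tested enzymes that build chondroitin sulfate, the chain type that versican carries, 4 were higher and 2 lower, with a median of 0.06. Called genes made up 30%, near the 29.4% of all genes tested. The lower pair were chondroitin sulfotransferases. Chst3 went from 96.5 ± 7.91 CPM in normal to 2.03 ± 1.80 CPM in resistant tumour CAFs (log2 fold change -5.54 ± 0.57, adjusted p = 2.38e-05). With 2 and 9 resistant reads, the log2 fold change of Chst3 was -4.85 without resistant replicate 1 and -6.93 without resistant replicate 2, and the call held. Chst7 had 0 and 1 reads in resistant against 144 and 250 in normal libraries, which is 211-fold higher in the normal ones (37.7-fold to 8370-fold by counting error at 95%). Chst15, another sulfotransferase of these chains, rose by 2.88 ± 0.42, from 10.1 ± 0.749 to 74.8 ± 21.2 CPM. Csgalnact1, which adds the first galactosamine unit of the chain, rose by 2.06 ± 0.34 a call lost without normal replicate 2 (adjusted p = 0.0534). Chst12 (1.69 ± 0.35) and Xylt1, with 34 and 15 reads in resistant against 3 and 0 in normal libraries, were the other higher calls, named after their values were seen.

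**Figure D4:**
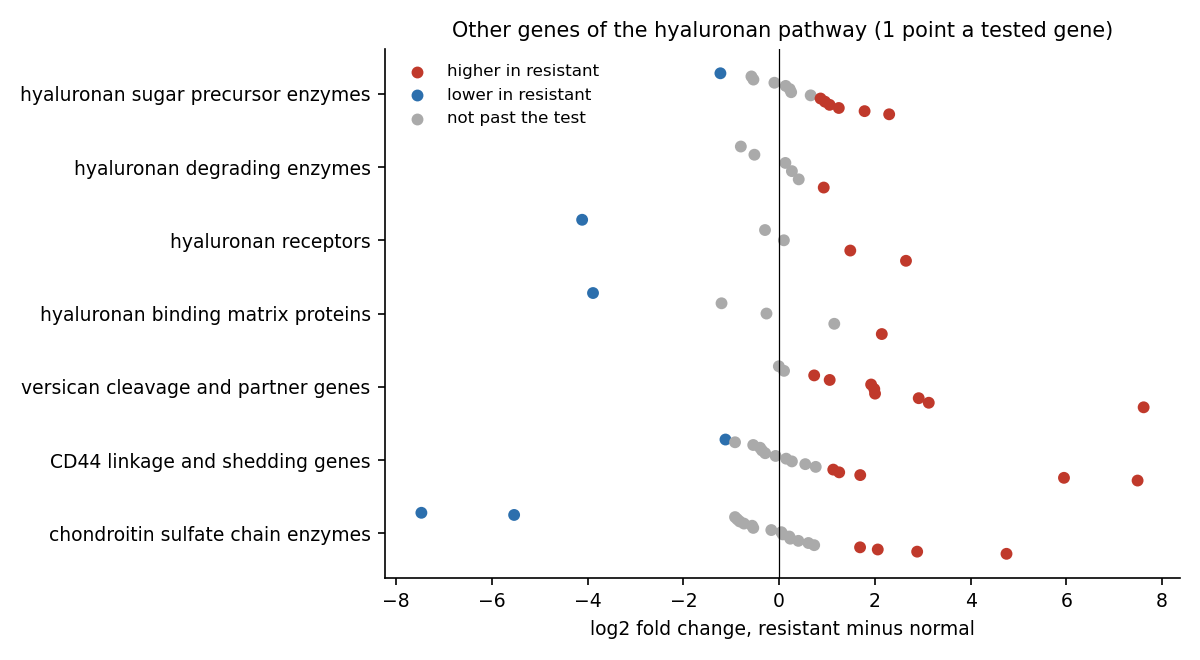
Log2 fold change (resistant minus normal) of 76 tested genes in 7 lists of the hyaluronan pathway, the 8 members left out, 1 point a gene (red called higher, blue called lower, grey not past the test). All calls among versican cleavage and partner genes lie to the right of 0, and Chst3 and Chst7 lie farthest left.

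By distance over the 4 libraries in centred log2 CPM, the genes most like Vcan, the member of highest mean CPM, were Slfn3, Cyp1b1 and Tnxb (distances of 0.273, 0.276 and 0.277). Cyp1b1 had 33.1 and 20.6 CPM in resistant and 1.24 and 0.673 CPM in normal libraries. Slfn3 (0.743 and 0 CPM) and Tnxb (0.248 and 0 CPM) were near the floor in the normal libraries. Fitted log2 fold changes were 5.47 for Slfn3, 4.82 for Cyp1b1 and 6.42 for Tnxb, beside 4.28 for Vcan. A small distance is thus not an equal fold change. With 4 libraries in 2 groups, 25 other genes lay within a distance of 0.5 of Vcan, where 12001 genes were tested.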

How the data were processed

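The deposited table gives raw read counts for each gene symbol. The submitters' processing notes name HTSeq 0.7.2, Picard 1.62, TopHat2 2.1.1, bcl2fastq 2, DESeq2 and the genome build mm9, without roles, and no source used here states settings or annotation. The labels describe both TruSeq and SMART-seq2 preparation without saying which libraries had which. The authors' deposited table gives log2 fold changes with standard errors, a statistic score, p-values and adjusted p-values. The normalized table was not used.

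Groups and replicate numbers came from the titles. Counts were tested in R 4.3.3 with edgeR 4.0.16: filterByExpr (minimum count 10), TMM, and the quasi-likelihood F test with group as the only term, resistant minus normal, Benjamini-Hochberg adjusted over 12001 genes, threshold 0.05. SE is the absolute log2 fold change over the square root of F, and 95% intervals use the test's degrees of freedom. Values are mean ± SD over 2 libraries. A count of 0 allows up to 3 counts. Where no other tool is named, adjusted p-values are from this test. The procedure was tested on simulated data. A 2-fold change was called in 15.15% of 66 genes, a 4-fold change in 76.12% of 67 and an 8-fold change in 98.48% of 66. Of 130 calls, 3.077% were false. Small changes can thus be missed. Few genes were changed in the simulation, so these shares need not hold for the real libraries. Alternatives were other scalings, filters and tools (DESeq2 1.42.0, limma 3.58.1), a replicate block, offsets along expression level (loess span 0.5), glmTreat, and each library left out. A fit without 1 library assumes that the lone library varies like the other group.

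The named genes were the members; in each pathway list up to 4 called genes of smallest adjusted p, or the 2 of highest CPM where none was called; and the 3 genes most like the member of highest CPM. A gene of the degrading enzymes list and a cell type marker are not reported here by name, but stay in the counts and sums. Members and lists were chosen with earlier results of these data known. Promoter windows came from RefSeq (5 of 8 members matched) and 14 motifs were searched; exonic lengths came from GENCODE M21 (GRCm38), whose coordinates were not joined to the mm9 counts.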

Additional observations from a re-analysis of the deposited data

How the results depend on the processing

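Over 15 alternatives, Vcan and Hyal1 passed the test in all, with log2 fold changes from 3.84 to 4.74 and from -4.10 to -2.89. Has1 passed in 13 of the 14 that tested it. Has2, Has3, Hyal2, Tmem2 and Cd44 passed in none of those that tested them (14 for Has3), but signs turned near 0: with 1 library left out, Has3 ranged from -0.084 to 1.78, Hyal2 from -0.30 to 0.0068 and Tmem2 from -0.54 to 0.33. Offsets along expression level gave Hyal2 0.0085, Tmem2 0.030 and Cd44 -0.36, and library totals gave Cd44 -0.030.

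Members called higher were 1 in place of 2 with at least 50 reads in 2 libraries, where Has1 was not tested, and 1 to 2 with 1 library left out; 1 was lower throughout. Over all genes, glmTreat against a log2 fold change of 1 gave 1066 higher and 839 lower, in place of 1857 and 1668, and leaving out 1 library gave 1078 to 2024 higher and 951 to 2323 lower. Among the 76 wider pathway genes, glmTreat gave 14 higher in place of 27, and 1 library left out gave 12 to 29 higher and 4 to 14 lower; lower calls were 10 with library totals, 10 without a filter and 11 with the replicate block, in place of 6. Of the 22 genes that the naming rule picked outside the members, 13 kept their call in every alternative that tested them; Stab1 and Fbn2, among those 13, were not tested with at least 50 reads in 2 libraries.

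Replicate numbers are not said to pair libraries. Deviations of same-numbered libraries correlated at r = 0.217 over genes, and with the replicate block 2257 genes were higher and 2267 lower; 2 members were higher and 1 lower, as without it (Vcan 4.30, Has1 3.23, Hyal1 -3.42). With 1 read worth up to 0.381 CPM, depth limits Has1, Has3 and Hyal1 most.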

Other observations

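A few genes of the hyaluronan lists were nearly silent in these fibroblasts. Itih2, a heavy chain that can be joined to hyaluronan, had 4 and 9 reads in resistant and 3 and 4 in normal libraries. The aggrecan-family genes Ncan and Bcan had at most 3 reads in any library. The splicing regulator gene Esrp1, which controls epithelial forms of Cd44, had 1 read in all, and Esrp2 had 2 to 10 reads a library. The hyaluronan-depolymerising gene Cemip, listed under its older symbol 9930013L23Rik, had 7 and 10 reads in resistant against 23 and 3 in normal libraries, so that its normal replicates stood on either side of both resistant ones.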
